A study of Homo sapiens with 36 samples.

Results

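The 51 genes described here make up the machinery of DNA replication, with the S phase entry regulators E2F1, CCNE1, CCNE2 and SKP2, and with UHRF1. They were chosen by symbol, with earlier results of these data known. All 51 were measured, of 20046 genes in all. Each gene was read from the probe with the highest mean signal among its probes, and 21 of the genes had more than 1 probe. RNA was measured with Illumina HT-12 bead arrays in LNCaP, an androgen-dependent prostate cancer cell line, and in c42b, a castration-resistant line derived from it. In each line, cells carried a non-targeting short hairpin (NT), a short hairpin against GABPA (knockdown), the empty pLVX vector (empty vector), or pLVX_GABPa (labelled overexpression). GABPA encodes the DNA-binding subunit of the ETS factor GABP. All cells had been in charcoal-stripped serum for 48 h, and then received the androgen receptor agonist R1881, a synthetic steroid, at 1 nM, or ethanol alone (vehicle), for a time the labels do not state. This gave 16 groups of 2 samples, so that a vector in a line had 4 samples over both treatments.

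The hairpins and the overexpression construct sat on different vectors, so that an empty-vector cell and a non-targeting cell differed in backbone as well as in whatever selection and culture they had, which cannot be told apart. The study's methods pair the 2 vector types with overexpression and knockdown in the opposite order, and the labels were followed here. The labels do not say whether a line was a clone or a pool, and the doxycycline induction that the study names for its overexpression cells is not in the labels. The study's methods describe the array RNA as coming from biological triplicates, whereas the labels give 2 samples a group. Whether these were separate cultures is not in the labels, so a p-value speaks only of the variation among these samples. RNA came from whole cultures, in which fewer cells in S phase and less RNA per cell cannot be told apart.

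Replication starts where the origin recognition complex (ORC) marks DNA and where CDC6 and CDT1 load the MCM2 to MCM7 helicase in G1. In S phase CDC45 and the GINS proteins join the helicase, primase and the polymerases copy the strands, and PCNA, loaded by replication factor C (RFC), clamps the polymerases to DNA. Most of these genes are transcribed at the G1/S boundary under E2F factors, which makes their RNA a common readout of how many cells are cycling. LNCaP cells need androgen for much of their proliferation in culture, and castration-resistant lines less so.

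The median member read 8.67 log2 over all samples, from 6.70 for CCNE2 to 13.53 for ORC6. The 95th percentile of olfactory receptor genes, taken here as background, was 7.80 log2, and 41 of the 51 members and 48.3% of all genes lay above it. E2F1, CCNE2, CDC6, CLSPN, GINS1, GINS4, PRIM2, POLD1, POLD3 and CHAF1A were at or below that level, so that their differences may be understated. All 6 markers of prostate epithelial lines were above background. Of 7 markers of basal, stromal or blood cells, 3 were above it, and the mean of the 7 ranged from 7.60 to 7.85 log2 over the samples. KLK3 (PSA), an androgen-induced gene, was higher with R1881 by 1.64 log2 in LNCaP and by 0.90 log2 in c42b, and FKBP5 by 2.66 and 2.08 log2. The GABPA probe was lower by 0.46 log2 in knockdown c42b cells (adjusted p = 0.0215 by limma), read 0.38 log2 lower in knockdown LNCaP cells without a call, and was not higher in the cells labelled overexpression (-0.05 log2 in LNCaP and 0.03 log2 in c42b). The knockdown means of this probe, 7.70 log2 in LNCaP and 7.50 log2 in c42b, were below background, so that the knockdown may be larger than these differences. GABPB1, which encodes the partner subunit, was higher in knockdown cells by 1.02 and 0.95 log2. A call below means an adjusted p under 0.05 in a limma model fitted across all probes. A difference is given on the log2 scale with its standard error (SE).

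Many replication genes differed between the 2 control vectors, which the design supplies as references for the knockdown and for the labelled overexpression. In empty-vector LNCaP cells 31 of the 51 members were lower than in non-targeting cells and 0 were higher, with a median difference of -0.43 log2. Over all genes 5.76% were called lower and 6.17% higher in this comparison, and the median was 0.0048 log2. In c42b cells 40 members were lower and 0 were higher, with a median of -0.90 log2, where 8.43% of all genes were called lower, 9.58% were called higher and the median was 0.012 log2. The lower calls of LNCaP and c42b shared 30 members, which is 96.8% of those in LNCaP and 75% of those in c42b. POLE was called in LNCaP alone, though it read -0.29 log2 in LNCaP and -0.27 log2 in c42b. The plot of each member's empty-vector difference shows the 2 lines side by side.

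**Figure D1:**
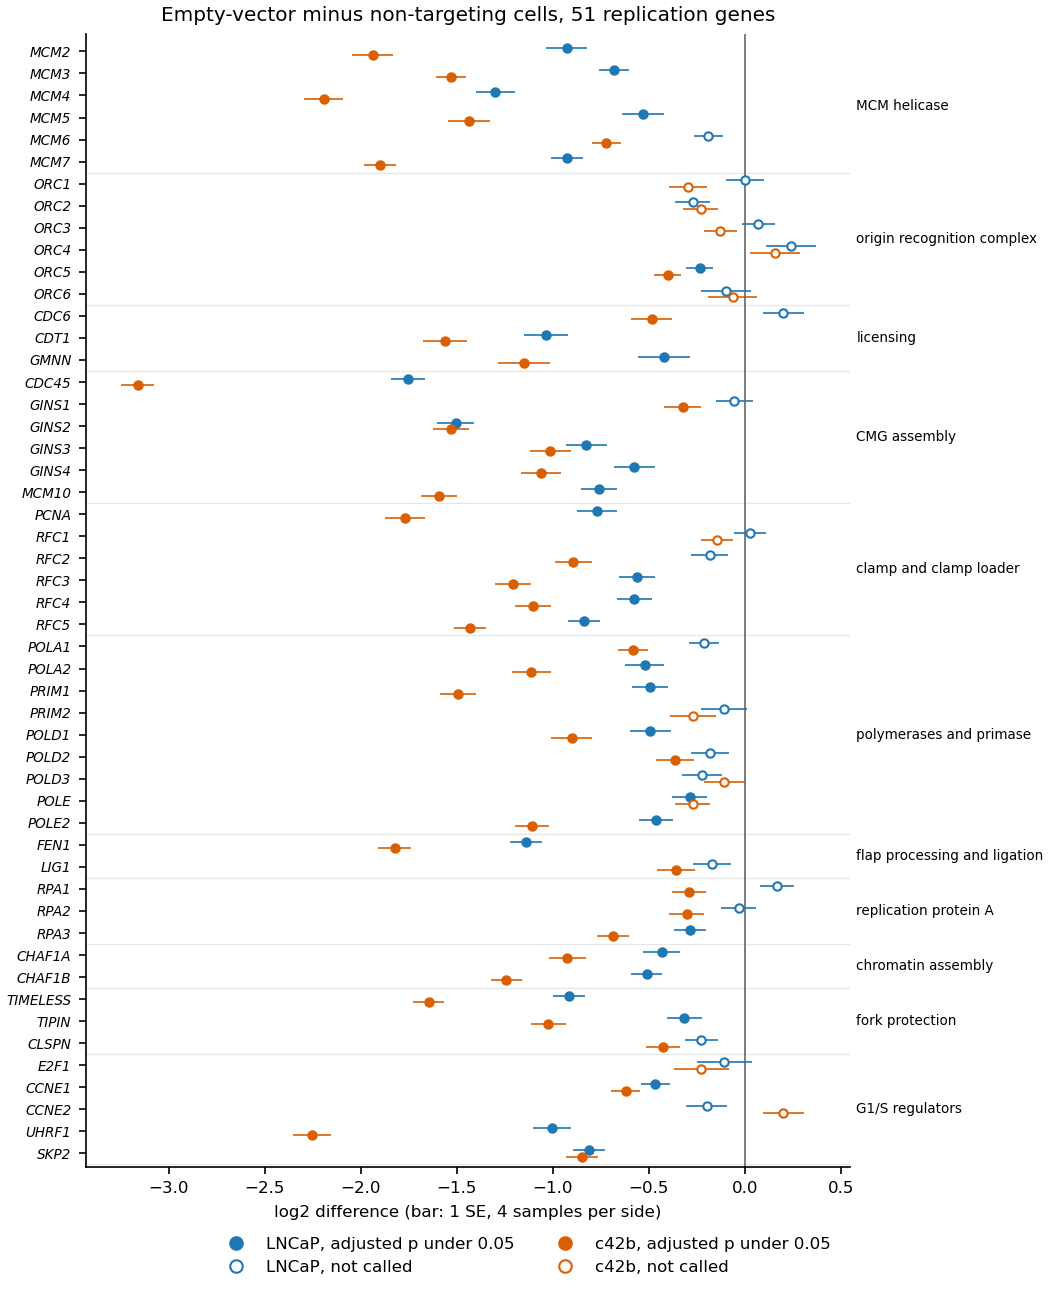
Difference between empty-vector and non-targeting cells for each of the 51 replication genes, on the log2 scale, in LNCaP (blue) and c42b (orange). Points are differences of means with 4 samples per side, bars are 1 SE, and filled points have an adjusted p under 0.05. Of the filled points, 31 are in LNCaP and 40 in c42b, all below 0, and 5 of the 6 origin recognition genes are open in both lines.

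CDC45, which activates the MCM helicase, was among the members that differed most. In LNCaP it read 8.91, 9.16, 9.13 and 9.02 log2 in the non-targeting samples, given here and below as R1881 replicates 1 and 2 and then vehicle replicates 1 and 2, and 7.42, 7.33, 7.21 and 7.24 in the empty-vector samples. In c42b the non-targeting samples read 10.75, 10.86, 10.59 and 10.82 log2 and the empty-vector samples 7.59, 7.53, 7.46 and 7.79. The empty-vector samples were all below background, and the 2 vectors did not overlap in either line. With such samples set to the background level, CDC45 was at least 2.38-fold lower in LNCaP (measured difference -1.75 log2, adjusted p = 9.19e-16 by limma) and at least 7.74-fold lower in c42b (measured difference -3.16 log2, adjusted p = 8.16e-22). MCM2, MCM4, CDT1, GINS3 and MCM10 in LNCaP, and GINS1, GINS3, GINS4, MCM10, POLD1, CHAF1A and UHRF1 in c42b, were called lower with an empty-vector mean that was below background while the non-targeting mean was above it, so that their differences below may be understated.

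Among the 6 MCM genes, which encode the hexamer that unwinds DNA, 5 were lower in LNCaP and all 6 in c42b. MCM4 differed by -1.30 log2 in LNCaP and -2.19 log2 in c42b (SE 0.10 in each). MCM2 differed by -0.93 and -1.94 log2 and MCM7 by -0.93 and -1.90 log2. MCM6 was the gene not called in LNCaP. Its LNCaP samples read 9.98, 9.89, 10.17 and 9.95 log2 with the non-targeting hairpin and 9.77, 9.72, 9.82 and 9.91 with the empty vector, which overlap. The difference of -0.19 log2 was not called (adjusted p = 0.129), while in c42b MCM6 fell by 0.72 log2 (SE 0.08, adjusted p = 1.81e-08).

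The origin recognition complex, which marks origins, was mostly not called. Only ORC5 of its 6 genes was called, at -0.24 log2 in LNCaP (adjusted p = 0.0323) and -0.40 log2 in c42b, and medians over the 6 were -0.05 and -0.18 log2. ORC6 depended on the probe. Its brighter probe, at 13.53 log2, read -0.10 and -0.06 log2, whereas its other probe, at 8.41 log2, was lower, at -1.05 log2 in LNCaP and -1.30 log2 in c42b. The licensing factor CDT1, which loads the helicase, was lower in both lines (-1.04 and -1.56 log2). GMNN, which encodes the CDT1 inhibitor geminin, was lower too (-0.42 and -1.15 log2). CDC6, the partner of CDT1 in loading, was close to background and read 0.20 log2 higher in LNCaP without a call (adjusted p = 0.327) and fell by 0.48 log2 in c42b.

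Of CDC45, the 4 GINS genes and MCM10, which turn the loaded hexamer into the active helicase, 5 of 6 were lower in LNCaP and all 6 in c42b. GINS2 read 9.96, 10.21, 10.04 and 10.07 log2 in non-targeting and 8.59, 8.63, 8.69 and 8.34 log2 in empty-vector LNCaP cells. The difference was -1.51 log2 in LNCaP and -1.53 log2 in c42b (SE 0.10 in each). GINS1, near background, was called in c42b alone.

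At the fork, PCNA read 10.43, 10.39, 10.49 and 10.54 log2 in non-targeting and 9.84, 9.62, 9.54 and 9.77 log2 in empty-vector LNCaP cells. In c42b it read 11.38, 11.55, 11.78 and 11.56 log2 against 9.89, 9.73, 9.89 and 9.68. The empty-vector samples of the lines overlapped, and the non-targeting samples did not. PCNA was lower in both, with -0.77 log2 in LNCaP (SE 0.10, adjusted p = 1.80e-06) and -1.77 log2 in c42b (SE 0.10, adjusted p = 4.10e-14). A dimmer PCNA probe, at 8.66 log2, read -0.39 and -0.31 log2. Of the clamp loader genes, RFC3, RFC4 and RFC5 were lower in both lines and RFC2 in c42b, and RFC1, the largest subunit, was called in neither (0.02 and -0.14 log2).

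Among the 9 polymerase and primase genes 5 were lower in LNCaP and 6 in c42b, with medians of -0.29 and -0.58 log2. PRIM1, the catalytic primase subunit, was lower (-0.49 and -1.50 log2), whereas its partner PRIM2 was called in neither line. The flap endonuclease FEN1, which trims Okazaki fragments, was 2.20-fold and 3.54-fold lower (-1.14 and -1.82 log2). DNA ligase LIG1, which seals them, read -0.17 log2 in LNCaP without a call and fell by 0.36 log2 in c42b. The 3 subunits of replication protein A, which coats single-stranded DNA, differed by 0.17 to -0.28 log2 in LNCaP, where RPA3 alone was called, and by -0.29 to -0.69 log2 in c42b, where all 3 were called. Both chromatin assembly genes, CHAF1A and CHAF1B, and the fork protection genes TIMELESS and TIPIN were lower in both lines. Of these 4, TIMELESS had the largest differences (-0.91 and -1.65 log2).

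The regulators split. UHRF1, which recognises hemimethylated DNA behind the fork, read 8.94, 8.94, 9.12 and 9.08 log2 in non-targeting and 7.87, 8.10, 8.04 and 8.05 log2 in empty-vector LNCaP cells, and in c42b 9.99, 10.14, 9.73 and 10.11 log2 against 7.66, 8.005, 7.88 and 7.40. The measured differences were -1.01 and -2.25 log2, and the latter is at least 4.34-fold with 2 of the 4 empty-vector c42b samples set to background. SKP2, the ubiquitin ligase subunit that removes the CDK inhibitor p27, was lower by a like amount in each line, at -0.81 log2 (adjusted p = 7.43e-09) and -0.85 log2 (adjusted p = 2.89e-09). The cyclin E gene CCNE1 read -0.47 and -0.62 log2 at its brighter probe, both called, and its other probe, at 8.13 log2, read 0.03 and 0.05 log2. E2F1, the factor that drives many of these genes, read -0.11 log2 (adjusted p = 0.778) and -0.23 log2 (adjusted p = 0.435), and CCNE2, a second cyclin E, read -0.20 log2 (adjusted p = 0.307) and 0.20 log2 (adjusted p = 0.304). Both lay at or under background, where a change could not be seen well.

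**Figure D2:**
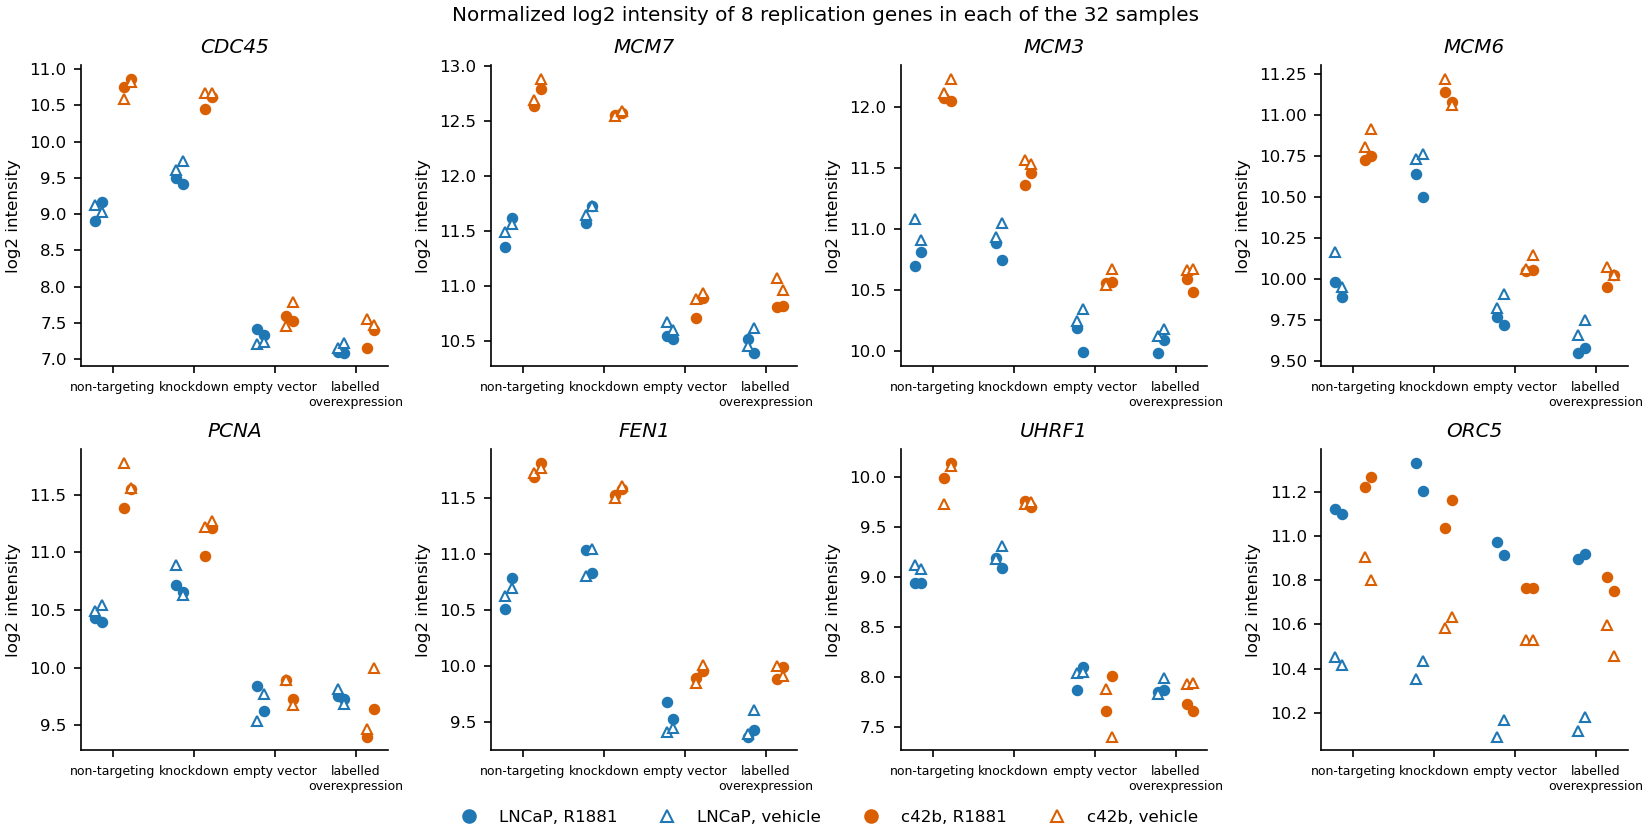
Normalised log2 intensity of 8 replication genes in all 32 samples, by vector, with LNCaP in blue and c42b in orange; filled circles are R1881 and open triangles vehicle samples, and each axis has its own range, not starting at 0. CDC45 falls from between 8.91 and 10.86 log2 in non-targeting cells to between 7.21 and 7.79 in empty-vector cells, MCM6 is highest in knockdown cells, and ORC5 separates by treatment.

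Most members were called lower with the empty vector in at least 1 line, and 10 were called in neither at the probe used. ORC6 is among these 10, though its other probe was lower in both lines, as given above. The RefSeq promoter windows of GRCh38.p14, from 250 bases before each transcript start to 50 after it, were searched for letters of 2 factor families. A window was available for 44 members, and MCM4, MCM5, GINS4, POLD3, RPA2, RPA3 and CCNE2 are named only. E2F letters were TTTCCCGC, TTTCGCGC, TTTGCCGC and TTTGGCGC, and ETS letters, as GABP binds them, CCGGAAG, all on both strands. E2F letters were in 22 of the 44 members (50%), against 1090 of 27305 genes in the whole table (3.99%). Of the members lower with the empty vector in both lines 13 of 26 held them, and of those called in neither line 2 of 8. ETS letters were in 6 of the 44 members (13.6%), against 12.2% of all genes. A match of letters is not a binding site, and windows without a match say nothing of the factor.

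The 200 bases before the first listed start are printed for 6 members on which the results turn, 5′ to 3′ on the strand of the gene, with E2F and ETS letters in capitals. CDC45 (chr22:19479720-19479919, plus strand) was lower with the empty vector in both lines and holds neither set of letters. GINS2 (chr16:85688955-85689154, minus strand) holds both, the ETS letters as CTTCCGG followed by the E2F letters as GCGGGAAA. MCM3 (chr6:52284743-52284942, minus strand) and MCM6 (chr2:135876444-135876643, minus strand) parted in knockdown c42b cells, and both hold E2F letters; those of MCM6 are 2 copies of TTTGGCGCGAAA, each of which reads as TTTGGCGC on one strand and as TTTCGCGC on the other. PCNA (chr20:5126623-5126822, minus strand) and UHRF1 (chr19:4909301-4909500, plus strand) hold 1 match each.
CDC45: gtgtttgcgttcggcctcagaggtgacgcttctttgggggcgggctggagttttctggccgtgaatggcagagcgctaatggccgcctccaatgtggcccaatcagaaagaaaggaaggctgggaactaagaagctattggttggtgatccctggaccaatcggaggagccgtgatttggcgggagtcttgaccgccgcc
GINS2: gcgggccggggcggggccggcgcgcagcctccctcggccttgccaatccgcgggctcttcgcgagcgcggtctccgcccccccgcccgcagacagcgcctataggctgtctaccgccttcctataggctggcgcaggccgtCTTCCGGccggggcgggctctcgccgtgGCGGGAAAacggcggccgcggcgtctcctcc
MCM3: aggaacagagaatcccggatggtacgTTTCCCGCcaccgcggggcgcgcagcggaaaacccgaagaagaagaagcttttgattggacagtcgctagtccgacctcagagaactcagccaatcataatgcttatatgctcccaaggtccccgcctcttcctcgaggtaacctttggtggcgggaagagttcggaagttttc
MCM6: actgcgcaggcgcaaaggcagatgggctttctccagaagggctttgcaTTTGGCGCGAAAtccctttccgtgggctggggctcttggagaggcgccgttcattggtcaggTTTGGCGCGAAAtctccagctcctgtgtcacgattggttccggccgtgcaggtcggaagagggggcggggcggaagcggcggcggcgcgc
PCNA: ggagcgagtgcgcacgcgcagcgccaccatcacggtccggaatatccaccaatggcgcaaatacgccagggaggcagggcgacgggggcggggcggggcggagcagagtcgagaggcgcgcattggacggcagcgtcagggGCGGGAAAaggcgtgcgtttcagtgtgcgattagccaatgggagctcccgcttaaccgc
UHRF1: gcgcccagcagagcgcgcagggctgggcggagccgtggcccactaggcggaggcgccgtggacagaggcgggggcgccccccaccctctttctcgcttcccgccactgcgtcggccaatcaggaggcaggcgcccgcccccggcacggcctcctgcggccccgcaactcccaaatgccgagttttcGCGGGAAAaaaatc

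The other pair of vectors gave a second reading of the same backbones in separate samples, since cells labelled overexpression carried pLVX and knockdown cells a hairpin. This comparison was added after the first was seen, and it also contains the effect of the knockdown. Cells labelled overexpression read lower than knockdown cells by a median of -0.57 log2 in LNCaP and -0.77 log2 in c42b over the 51 members, against -0.000157 and 0.00405 log2 over all genes. Of the 31 members lower in empty-vector LNCaP cells 30 were called lower here too, the exception being GMNN, and of the 40 in c42b 35 were, where 6.2% and 8.7% of all genes were called lower. CDC45 read 7.10, 7.09, 7.16 and 7.23 log2 in the labelled overexpression and 9.50, 9.42, 9.60 and 9.73 log2 in the knockdown samples of LNCaP, which is -2.42 log2. In c42b the samples read 7.15, 7.40, 7.55 and 7.47 log2 against 10.45, 10.61, 10.67 and 10.66, which is -3.20 log2. The labelled overexpression samples were again all below background, so that both differences may be understated. MCM6 read -1.03 log2 in LNCaP and -1.11 log2 in c42b in this pair.

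**Figure D3:**
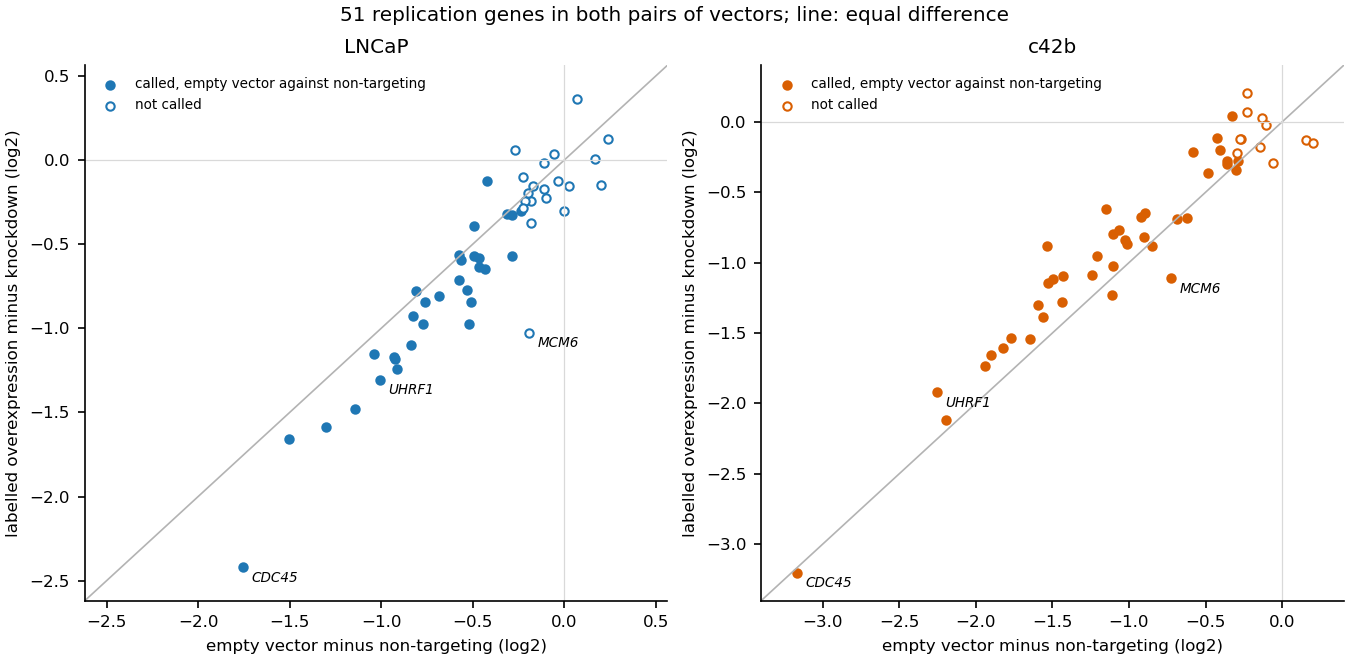
Each replication gene's difference between empty-vector and non-targeting cells (x axis, log2) against that between labelled overexpression and knockdown cells (y axis, log2), in LNCaP (left) and c42b (right); the 2 pairs share no samples, and the diagonal marks equal differences. In the second pair 46 members are below 0 in LNCaP and 47 in c42b, with CDC45, whose empty-vector and labelled overexpression samples are below background, at -1.75 and -2.42 log2 in LNCaP and at -3.16 and -3.20 log2 in c42b, and MCM6 below the diagonal.

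Whether the empty-vector difference was the same in both lines was tested as an interaction. It was more negative in c42b for 22 members and less negative for 0, where 2.89% of all genes were called in that direction. For 16 of the 22 the empty-vector means were above background in both lines, PRIM1 (-1.001 log2), PCNA (-0.999 log2) and MCM7 (-0.97 log2) among them. For MCM2, MCM4 and UHRF1 that mean was below background in 1 line and for CDC6, CDC45 and MCM10 in both, so that the sizes of these 6 are set in part by the background. They read -1.41 log2 for CDC45 (adjusted p = 9.93e-09), -1.25 log2 for UHRF1 (adjusted p = 8.60e-07) and -1.01 log2 for MCM2. All 6 MCM genes were among the 22, MCM6 by -0.53 log2 (SE 0.11). GINS2 and SKP2 differed by -0.03 and -0.04 log2 (adjusted p = 0.985 and 0.972). The PCNA value is that of its brighter probe, and its dimmer probe, given above, was not more negative in c42b. In the other vector pair 21 of the 22 had the same sign but only CDC45, MCM7, PRIM1, TIPIN and UHRF1 were called, where 2.16% of all genes were called in that direction, so that 17 calls of the line difference rest on the control vectors alone. That pair holds the knockdown cells, in which the lines differed too.

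GABPA knockdown moved few replication genes past the threshold at the main settings, and mostly not the same ones in both lines. In LNCaP 3 of 51 members were higher and 0 lower, beside 1.27% of all genes called higher and 1.2% lower, with a median of 0.10 log2. In c42b 1 member was higher and 2 were lower, beside 1.72% and 1.53% of all genes, with a median of -0.17 log2. Differences were above 0 for 42 members in LNCaP and below 0 for 44 in c42b, and 35 members did both, although most were not called. Over all genes the median difference lay between 0.00291 and 0.00642 log2 in each line and treatment. Members tended to vary together over the 32 samples (median correlation of pairs 0.6), so that these counts are not separate readings. The knockdown is compared with the same non-targeting samples as the empty vector above. In each line more members were called with the brighter probes only or at an adjusted p under 0.1, as listed at the end.

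MCM6 was the member called in both lines. The knockdown samples read 10.64, 10.50, 10.74 and 10.76 log2 in LNCaP, all above the non-targeting samples, and MCM6 was higher by 0.66 log2 (SE 0.08, 1.58-fold, adjusted p = 8.39e-07). In c42b they read 11.14, 11.08, 11.22 and 11.06 log2 against 10.73, 10.75, 10.81 and 10.92 in non-targeting cells, again without overlap, and MCM6 was higher by 0.33 log2 (SE 0.08, 1.25-fold, adjusted p = 0.0202). The c42b call for MCM6 was lost when non-targeting R1881 replicate 1 or 2, non-targeting vehicle replicate 1, or knockdown replicate 1 of either treatment was left out, with an adjusted p of up to 0.137.

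CDC45 and RPA3 were also higher in knockdown LNCaP cells, CDC45 by 0.51 log2 (SE 0.09, adjusted p = 0.000698) and RPA3 by 0.34 log2 (SE 0.08, adjusted p = 0.0340). The RPA3 call was kept only without non-targeting R1881 replicate 2 or non-targeting vehicle replicate 1 of the 8 samples. In c42b neither was called (CDC45 -0.16 log2 and RPA3 -0.11 log2).

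MCM3 and PCNA were lower in knockdown c42b cells. MCM3 read 11.36, 11.46, 11.56 and 11.54 log2 with the knockdown and 12.08, 12.05, 12.11 and 12.23 log2 with the non-targeting hairpin, so that the sides did not overlap, and fell by 0.64 log2 (SE 0.08, 1.55-fold lower, adjusted p = 3.44e-06). In LNCaP MCM3 read 0.03 log2 (adjusted p = 0.971). At its brighter probe PCNA read 10.96, 11.21, 11.22 and 11.27 log2 in knockdown c42b cells and fell by 0.40 log2 (SE 0.10, adjusted p = 0.0489). That call was kept without knockdown R1881 replicate 2 and lost without any 1 of the other 7 samples, with an adjusted p of up to 0.25. Without overlap of the sides 17 members read lower in c42b, where 4.99% of all genes did. Of the 3 calls in c42b MCM3 alone was kept without non-targeting R1881 replicate 1 or 2, non-targeting vehicle replicate 1, or knockdown replicate 1 of either treatment.

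**Figure D4:**
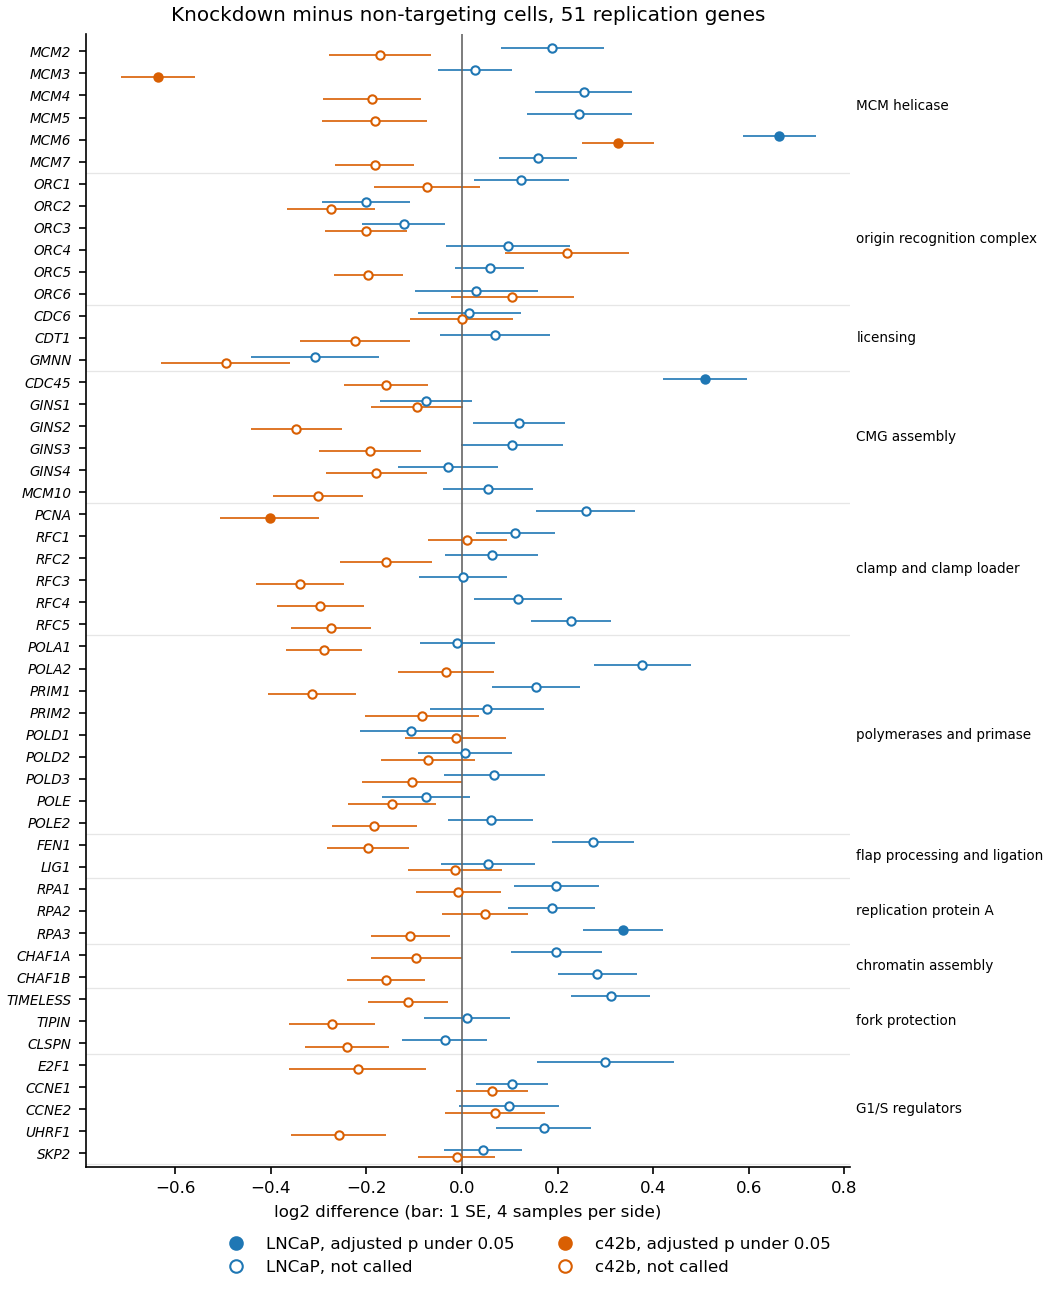
Difference between knockdown and non-targeting cells for each of the 51 replication genes, on the log2 scale, in LNCaP (blue) and c42b (orange). Points are differences of means with 4 samples per side, bars are 1 SE, and filled points have an adjusted p under 0.05. MCM6 is above 0 in both lines, at 0.66 and 0.33 log2, and MCM3 is at 0.03 log2 in LNCaP and -0.64 log2 in c42b.

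The knockdown effect differed between lines for 5 members, each more negative in c42b, where 0.948% of all genes were called in that direction. These were CDC45 (-0.67 log2, SE 0.12, adjusted p = 0.00194), MCM3 (-0.66 log2, SE 0.11, adjusted p = 0.000479), PCNA (-0.66 log2, SE 0.15, adjusted p = 0.0135), RFC5 (-0.50 log2, SE 0.12, adjusted p = 0.0245) and FEN1 (-0.47 log2, SE 0.12, adjusted p = 0.0485). The PCNA value is that of its brighter probe alone. MCM6 differed by -0.34 log2 without a call (adjusted p = 0.179). Of the 5 calls 2 were kept without non-targeting R1881 replicate 2 of c42b, and 3 without any 1 of 9 other samples. In c42b these were both non-targeting vehicle replicates, both knockdown R1881 replicates and knockdown vehicle replicate 2. In LNCaP they were non-targeting R1881 replicate 1, both non-targeting vehicle replicates and knockdown vehicle replicate 2. CDC45 and MCM3 were called whichever 1 of the 16 samples was left out. The knockdown effect was called different between R1881 and vehicle for 0 members in each line by limma, where 0.11% and 0.0449% of all genes were called. At an unadjusted p under 0.05 there were 0 members in LNCaP and 0 in c42b, beside 6.3% and 4.04% of all genes.

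TYMS, thymidylate synthase, read -0.19 log2 in LNCaP and fell by 1.12 log2 in c42b with the knockdown. Of the regulators, E2F1 read 0.30 log2 in knockdown LNCaP cells (adjusted p = 0.549) and -0.22 log2 in c42b (adjusted p = 0.745). SKP2 read 0.04 and -0.01 log2, CCNE1 0.10 and 0.06 log2, and CCNE2 0.10 and 0.07 log2, and none was called. The study itself reports significantly reduced SKP2 and TYMS RNA in knockdown cells, more so in c42b, and does not name the assay there. PCNA in LNCaP read 0.26 log2 (adjusted p = 0.396).

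No replication gene was called between cells labelled GABPA overexpression and empty-vector cells. Of the 51 members 0 were called in LNCaP and 0 in c42b by limma, where 0.0449% and 0.15% of all genes were called, and 2 and 3 members had an unadjusted p under 0.05, as had 4.38% and 5.79% of all genes. Differences lay between -0.33 log2 (CDC6) and 0.23 log2 (E2F1) in LNCaP, and between -0.28 log2 (CCNE2) and 0.27 log2 (GINS1) in c42b. MCM6 read -0.17 and -0.06 log2, PCNA 0.05 and -0.17 log2, SKP2 0.08 and -0.05 log2, and CCNE1 -0.01 and 0.00 log2, in LNCaP and c42b. The mitosis genes, a separate list, held 3 lower calls of 35 in c42b, CDC20 among them (-0.42 log2). With a median SE of 0.0969 log2, changes of a few times that size or less could be missed, and the GABPA probe itself was not raised in these cells.

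R1881 moved 2 members in LNCaP control-vector cells and 1 in c42b. In LNCaP 1 was higher and 1 lower, beside 1.65% and 1.32% of all genes, and in c42b 1 was higher, beside 0.943% of all genes. ORC5, a subunit of the origin recognition complex, was the member called in both. It read 11.12 and 11.10 log2 with R1881 and 10.45 and 10.42 log2 with vehicle in non-targeting LNCaP cells, and 10.97 and 10.91 against 10.09 and 10.17 in empty-vector cells, so that every R1881 sample lay above every vehicle sample, as for 3.01% of all genes. ORC5 was higher by 0.75 log2 (SE 0.07, 1.68-fold, adjusted p = 3.43e-08). The LNCaP cells left out of that test read 0.76 log2 higher with R1881 in the labelled overexpression and 0.88 log2 higher in the knockdown.

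In c42b ORC5 read 11.22 and 11.27 log2 with R1881 against 10.90 and 10.80 in non-targeting cells, and 10.76 and 10.77 against 10.53 and 10.53 in empty-vector cells. It was higher by 0.31 log2 (SE 0.07, adjusted p = 0.0192), a call kept only without non-targeting vehicle replicate 1 of the 8 samples. At its brightest probe the R1881 effect on ORC5 was smaller in c42b than in LNCaP, with a difference of -0.43 log2 (SE 0.10, adjusted p = 0.0257). In that direction 0.289% of all genes were called. The ORC5 call was lost without any 1 of 9 of the 16 samples, with an adjusted p of up to 0.0791, and these 9 were spread over both lines and vectors. A second ORC5 probe, at 8.23 log2, read 0.38 log2 in LNCaP (adjusted p = 0.0623), and the remaining probe, below background, read 0.03 log2.

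CHAF1B, a subunit of chromatin assembly factor 1, was lower with R1881 in LNCaP. It read 8.75 and 8.55 log2 with R1881 and 8.92 and 8.98 with vehicle in non-targeting cells, and 7.96 and 8.03 against 8.59 and 8.58 in empty-vector cells, so that within each vector R1881 samples were lower. CHAF1B fell by 0.44 log2 (SE 0.08, adjusted p = 0.00163), and the call was lost in non-targeting cells alone. In c42b it read -0.06 log2 (adjusted p = 0.920), and the difference between lines was not called (adjusted p = 0.135). GMNN read 0.31 log2 higher in LNCaP and 0.46 log2 higher in c42b, without a call. E2F1, SKP2, PCNA, CCNE1, CCNE2 and MCM6 were not called, with differences from -0.19 log2 (SKP2) to -0.01 log2 (PCNA) in LNCaP and from -0.09 log2 (SKP2, PCNA and MCM6) to 0.16 log2 (CCNE2) in c42b. The median over the 51 members was -0.09 log2 in LNCaP and -0.01 log2 in c42b.

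Between the lines, c42b control-vector cells expressed 31 of the 51 members at a higher level than LNCaP cells and 2 at a lower level, with a median of 0.32 log2. Over all genes 14.9% were higher and 13.7% lower. The clamp loader genes RFC4 (1.07 log2, SE 0.06, adjusted p = 2.18e-14) and RFC3 (1.01 log2, SE 0.07), CDC45 (0.997 log2, SE 0.06, with its empty-vector samples below background) and RPA3 (0.92 log2, SE 0.06) had the largest measured differences. All 6 MCM genes were higher, from 0.54 log2 for MCM6 to 0.82 log2 for MCM3. SKP2 was higher by 0.66 log2 and PCNA by 0.60 log2. ORC3 (-0.37 log2, adjusted p = 1.33e-05) and CCNE1 (-0.24 log2) were lower, and E2F1 and CCNE2 were not called.

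The lines were also compared within each vector. The median over members was 0.54 log2 in non-targeting, 0.39 in knockdown, 0.15 in empty-vector and 0.13 in labelled overexpression cells. Within empty-vector cells 15 members were called higher in c42b and 3 lower, beside 11.3% and 11.1% of all genes. Within cells labelled overexpression 14 were higher and 3 lower, beside 10.7% and 10.6% of all genes. Within non-targeting cells 34 were higher and 1 lower, beside 11.5% and 10.9%, and within knockdown cells 28 were higher and 1 lower, beside 10.7% and 9.58%. PCNA, at its brighter probe above background in every sample, differed by 1.10 log2 between the lines with the non-targeting hairpin. With the empty vector it differed by 0.10 log2, and this contrast is the one tested above as the interaction. Its dimmer probe did not show a larger empty-vector difference in c42b. RFC4 and RPA3 were higher in c42b with every vector, RFC4 by 0.80 to 1.33 log2 and RPA3 by 0.56 to 1.12 log2.

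**Figure D5:**
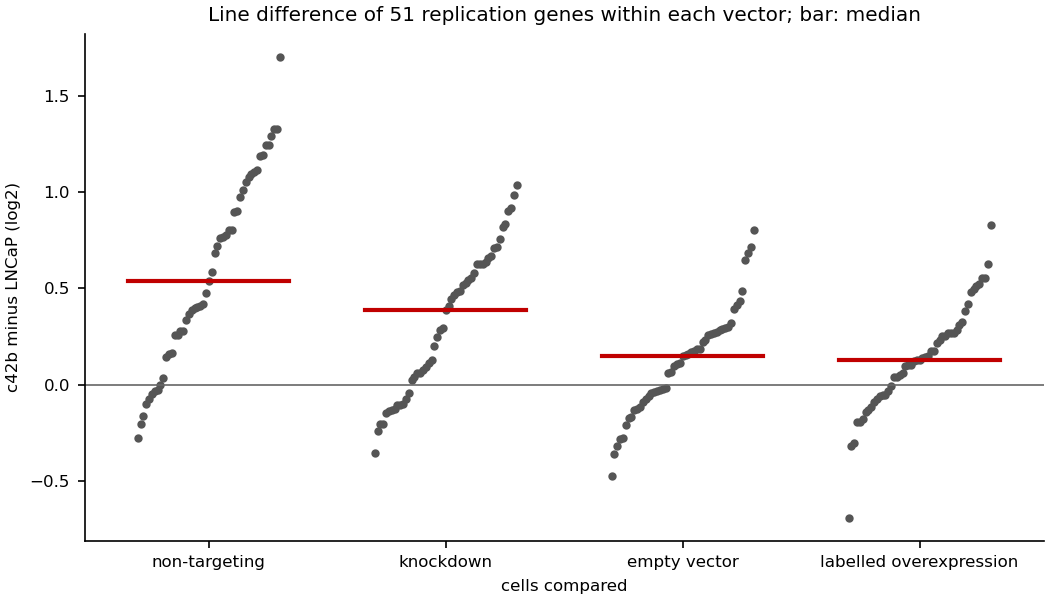
Difference between c42b and LNCaP cells for each of the 51 replication genes (points, in order of size) within each of the 4 vectors, on the log2 scale, with the median as a bar. Medians are 0.54 log2 in non-targeting, 0.39 in knockdown, 0.15 in empty-vector and 0.13 in labelled overexpression cells.

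Over the 32 samples, the sum of squares of a member had its largest median share, 55.9%, between pLVX and hairpin cells, called backbone here. Median shares were 13.7% for the line, 3.83% for line by backbone, 0.774% for R1881 and 10.4% for the rest. Selection and culture cannot be told apart from the backbone, and the shares were not computed over all genes. The backbone shares also hold part of any knockdown or labelled overexpression effect. The rest holds differences between vectors of the same backbone and any that depend on R1881, as well as the scatter of samples. The backbone was the largest part for 31 members, the line for 7, R1881 for ORC5 alone (64.9%), and the rest for 12. GINS2 had the highest backbone share, 95%.

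Other lists with a role in the cell cycle were read in the same empty-vector comparison. Beside the counts below, 5.76% of all genes were called lower and 6.17% higher in LNCaP, and 8.43% and 9.58% in c42b. Among 29 further replication genes 10 were lower in LNCaP and 15 in c42b with the empty vector, and 1, POLD4, was higher in c42b (0.46 log2). TOP2A, the topoisomerase that untangles replicated DNA, was lower (-1.53 and -3.10 log2). Of 9 measured genes of deoxynucleotide synthesis 6 and 7 were lower, among them TYMS, which makes thymidylate (-1.89 and -3.21 log2), and DUT was higher in c42b (0.47 log2). Of 35 mitosis genes 32 were lower in LNCaP and 34 in c42b, with medians of -0.90 and -2.07 log2. The mitotic genes CDC20 and UBE2C read -2.47 and -2.45 log2 in LNCaP and -3.93 and -3.90 log2 in c42b, all called. Of 24 measured E2F and G1/S control genes 5 were lower and 1 higher in LNCaP, and 11 lower and 1 higher in c42b. CDKN1A, the CDK inhibitor p21, was higher in empty-vector c42b cells by 0.75 log2, read -0.07 log2 in empty-vector LNCaP cells without a call (adjusted p = 0.766), and was higher in knockdown cells by 0.92 log2 in LNCaP and by 0.76 log2 in c42b. With the knockdown 11 of 35 mitosis genes were lower in c42b, beside 1.53% of all genes. In LNCaP 3 were higher, beside 1.27% of all genes. Of the 7 basal, stromal and blood cell markers 0 were called in LNCaP, and ACTA2 alone was in c42b, higher by 0.30 log2 with the empty vector and by 0.66 log2 with the knockdown. Of the 6 epithelial markers 1 was higher in LNCaP and 3 in c42b with the empty vector, with medians of 0.09 and 0.30 log2. The part of these markers in the replication gene differences was not tested.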

How the data were processed

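Bead intensities of 36 Illumina HT-12 arrays were deposited as a table of intensity values that the authors had summarised per probe after spatial correction of the bead images with beadarray (BASH and HULK; versions not given in the sources used here). A second deposited table held log2 intensities that the authors had quantile-normalised over the arrays. Here the intensities were log2-transformed and quantile-normalised. The result differed from the deposited log2 values by a median of 0.000159 and by at most 0.152. Quantile normalisation forces equal distributions on the arrays, so that a shift of all RNA cannot be seen. Array medians before it ran from 178.3 to 225, 94 intensities were missing, and the number of samples limits the precision. The arrays came from 32 samples, since 4 repeat arrays were averaged into their sample, and every sample was grouped by its labels into 16 groups of 2.

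A model with 16 group means was fitted over 47231 probes with limma 3.58.1 in R 4.3.3, and p-values were adjusted by Benjamini-Hochberg across every probe, in 1 family each for the 6 main comparisons, the 5 interactions and the 2 control-vector comparisons, and alone for the line. A call was an adjusted p under 0.05. Of the probes, 30113 named 1 gene, 8 named several and 17110 none in the platform annotation, and the probe of highest mean stood for each of 20046 genes. Members and gene lists were chosen with earlier results of these data known. Named were, per comparison, up to 4 called members with the largest difference each way, all members called in an interaction, and E2F1, SKP2, PCNA, CCNE1, CCNE2 and MCM6 throughout, and up to 4 called genes of other lists with TYMS, GABPA, GABPB1, KLK3 and FKBP5 as checks. Members named beyond these, to fill out their groups, were chosen after their values were seen. Alternatives were the background correction, centring, the deposited table, probe filters and probe choice, separate fits, treatment arms, a replicate block and leaving out each sample. The comparisons of the other vector pair and of the lines within single vectors were added after seeing the data. The model was tested on simulated data.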

Additional observations from a re-analysis of the deposited data

Results flagged for a closer look

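The results singled out here are differences of an effect between the lines that passed the interaction test by limma, c42b minus LNCaP on the log2 scale. With groups of 2 samples no group was large enough to be searched for outlying samples.

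The knockdown effect differed for MCM3 (-0.66 log2), CDC45 (-0.67 log2), PCNA (-0.66 log2 at its brighter probe), RFC5 (-0.50 log2) and FEN1 (-0.47 log2). MCM3 lay near 0 in LNCaP and fell in c42b, whereas CDC45 rose in LNCaP and was not called in c42b.

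The R1881 effect differed for ORC5 alone (-0.43 log2 at its brightest probe), which was higher with R1881 in both lines and by less in c42b.

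The empty-vector difference was more negative in c42b for 22 members, where 2.89% of all genes were called in that direction. In the other vector pair 5 of the 22 were called, and 5 of the 22 kept their call under every setting. All 6 helicase genes were among the 22, MCM2 (-1.01 log2), MCM3 (-0.85), MCM4 (-0.89), MCM5 (-0.90), MCM6 (-0.53) and MCM7 (-0.97). The factors that load or activate the helicase were CDC6 (-0.68 log2), CDC45 (-1.41) and MCM10 (-0.84). At the clamp, PCNA differed by -0.999 log2 at its brighter probe, whereas its dimmer probe was not more negative in c42b. The loader genes RFC2, RFC3, RFC4 and RFC5 differed by -0.71, -0.65, -0.53 and -0.60. The polymerase and primase genes were POLA2 (-0.59 log2), PRIM1 (-1.001) and POLE2 (-0.64), and FEN1, which trims flaps, differed by -0.68. CHAF1B (-0.73 log2), TIMELESS (-0.73), TIPIN (-0.71) and UHRF1 (-1.25) completed the group. The empty-vector means of MCM2, MCM4 and UHRF1 in 1 line, and of CDC6, CDC45 and MCM10 in both, were below background, which sets their sizes in part.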

How the results depend on the processing

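Counts of called members moved as follows. For knockdown in LNCaP (3) they were 7 with the brighter probes only, 5 adjusted within the comparison, 5 at an adjusted p under 0.1 and 1 in the R1881 arm. For knockdown in c42b (3) they were 12, 7 and 7 under the same settings, 5 counting any probe, 1 in a separate fit and 1 in each arm. For R1881 in LNCaP (2) the count was 1 in non-targeting cells. For R1881 in c42b (1) it was 0 with median centring, a separate fit or non-targeting cells alone, and 2 with brighter probes or all 4 vectors. For the lines (33) it was 18 in empty-vector and 17 in labelled overexpression cells. For the knockdown by line (5) it was 2 with median centring, 13 with brighter probes and 9 at an adjusted p under 0.1, for R1881 by line (1) 0 with median centring, 2 with brighter probes and 0 adjusted alone, and for the empty vector by line (22) 5 in the other vector pair. Brighter probes and single arms or vectors mean fewer tests or samples, and otherwise the cause was not tested.

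Replicate numbers were shared across groups but did not pair the samples (120 pairs, r from -0.237 to 0.23, 19 over 0.1). With the replicate block the counts were 3 and 2 for knockdown in LNCaP and c42b, 0 and 0 for overexpression, 2 and 1 for R1881, 33 for the lines, 32 and 40 for the empty vector, 6, 1 and 22 for the knockdown, R1881 and empty vector by line, and 0 and 0 for the knockdown by arm. The called member lost under the block was PCNA for knockdown in c42b (adjusted p = 0.0582 by limma).

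Leaving out 1 sample gave 2 to 3 calls for knockdown in LNCaP, 1 to 3 in c42b, 0 to 0 for overexpression, 2 to 3 for R1881 in LNCaP, 0 to 1 in c42b, 32 to 35 for the lines, 26 to 30 for the empty vector in LNCaP, 37 to 39 in c42b, 2 to 6 for the knockdown by line, 0 to 1 for R1881 by line, 19 to 23 for the empty vector by line and 0 to 0 for the knockdown by arm. PCNA in the knockdown by line was lost without c42b non-targeting R1881 replicate 2 or vehicle replicate 1, c42b knockdown R1881 replicate 1 or LNCaP knockdown vehicle replicate 1. RFC5 was lost without 8 of 16 samples, and FEN1 was kept only without LNCaP non-targeting R1881 replicate 2, LNCaP knockdown R1881 replicate 2 or LNCaP knockdown vehicle replicate 1. With the empty vector GMNN, ORC5, POLE, RPA3 and TIPIN in LNCaP, and GINS1, LIG1, POLD2, RPA1 and RPA2 in c42b, each lost their call without 3 to 7 of 8 samples, as did CDC6, POLA2 and RFC4 by line without 3, 9 and 11 of 16.

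Signs turned for GINS2 between lines in knockdown cells (-0.21 log2), ORC5 in the R1881 arm (-0.0213), MCM10, RFC5 and UHRF1 in empty-vector cells (-0.0749, -0.0568 and -0.28), MCM10, PCNA, TIPIN and UHRF1 in labelled overexpression cells (-0.0526, -0.12, -0.0329 and -0.073), GINS1 in c42b (0.0403) and RFC5 by line (0.0023) in the other vector pair. The cause was not tested. Calls kept under every setting were 21 of 31 and 31 of 40 for the empty vector in LNCaP and c42b, 14 of 33 for the lines, 5 of 22 for the empty vector by line, 2 of 5 for the knockdown by line, 1 of 3 for knockdown in each line, 1 of 2 for R1881 in LNCaP, 0 of 1 in c42b and 0 of 1 for R1881 by line.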
